A study of Mus musculus with 18 samples.

Results

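The genes that encode the protein subunits of the cytosolic ribosome were followed across 18 RNA sequencing libraries of cultured mouse microglia, which are macrophages that live in brain tissue. Members were the protein-coding genes with an Rpl or Rps symbol followed by a digit, together with Rplp0, Rplp1, Rplp2 and Rpsa, and without the Rps6k kinases, pseudogenes and genes with no counts. This rule used symbols and the presence of counts, not differences between samples. Of 86 symbols that met the rule on names, Rpl10l had no counts, which left 85 members among 50686 gene identifiers. They comprised 51 large-subunit and 34 small-subunit symbols and lay on 19 chromosomes. The rule on symbols also took in Rps19bp1, whose product binds the ribosomal protein RPS19 and is not itself a subunit, and Rpl7l1, whose product acts in ribosome assembly. It left out genes such as Fau and Rack1, which encode ribosomal proteins under other names.

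Each cytosolic ribosome joins a small subunit, which decodes the messenger RNA, to a large subunit, which forms the peptide bonds. The subunit proteins are made in matched amounts, and a surplus of free protein is degraded. Most of their messenger RNAs start with a C followed by a run of pyrimidines, the 5′ terminal oligopyrimidine (TOP) motif, through which the mTORC1 kinase and the RNA-binding protein LARP1 control their translation and stability.

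Forebrains of C57BL/6 pups at postnatal day 2 gave mixed cultures that grew 7 days, had their medium renewed and grew 7 days longer, and microglia were then taken from them. All 6 genotypes had 3 libraries each: Tbk1+/- Tak1ΔM/+ Ripk1D138N/+, Tbk1+/- Tak1ΔM/+, Tbk1+/- Ripk1D138N/D138N, Tbk1+/-, Tak1ΔM/+ and wild type (WT). TBK1 and TAK1 (encoded by Map3k7) are kinases that restrain RIPK1, and the D138N change inactivates the kinase of RIPK1. The labels do not explain the ΔM allele of Tak1 or name the cells in which it is deleted. Nor do they say if the 3 libraries were made from different animals, so p-values measure the spread between libraries, which may be technical.

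Total counts ranged from 8016559 to 22989116 per library. Markers of microglia summed to between 7074 and 9019 CPM (counts scaled to 1e+06 per library, with TMM factors) in every library. Astrocyte markers summed to at most 40.3 CPM, neuronal markers to at most 12.4 CPM, oligodendrocyte-lineage markers to at most 88.5 CPM, fibroblast, mural and endothelial markers to at most 34.2 CPM and markers of other blood cells to at most 4.39 CPM. The defining blood genes Hbb-bs, Hba-a1 and S100a9 were at 0 throughout. Tbk1 itself went against some labels. It stood at 123, 107 and 115 CPM in the libraries labelled Tbk1+/- Tak1ΔM/+ Ripk1D138N/+ and at 130, 54.9 and 131 CPM in those labelled Tbk1+/- Ripk1D138N/D138N. It measured 55.0, 56.3 and 66.0 CPM in Tbk1+/- Tak1ΔM/+, 50.5, 65.6 and 57.1 CPM in Tbk1+/-, 133, 106 and 87.9 CPM in Tak1ΔM/+, and 106, 104 and 149 CPM in WT. Thus all 3 libraries labelled Tbk1+/- Tak1ΔM/+ Ripk1D138N/+ and replicates 1 and 3 of those labelled Tbk1+/- Ripk1D138N/D138N had Tbk1 at the level of genotypes with both alleles. Results that rest on them are results of libraries so labelled. Map3k7, which encodes TAK1, did not separate the labels: it had 15.8, 11.4 and 6.57 CPM in Tbk1+/- Tak1ΔM/+ and 10.9, 10.4 and 19.2 CPM in WT cells (log2 fold change -0.27, adjusted p = 0.714), and averaged 8.76 CPM in Tak1ΔM/+ and 13.5 CPM in WT cells (-0.62, adjusted p = 0.561). Counts over the whole gene do not show whether an allele is deleted in part.

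RefSeq start sites were at hand for 65 of the 85 members. In 14 of these, or 21.5%, the annotated start was a C followed by at least 4 pyrimidines, against 3.01% of all 27025 genes in the same table. Below are 40 bases around the start of 8 members, shown because their annotated start carries the TOP letters through which these genes are known to be controlled together, followed by 3 members with large decreases whose annotated start does not. Each line reads 5′ to 3′ on the gene's strand in RefSeq GRCm38.p6, with 30 bases before the start and 10 from it, and capitals mark the pyrimidine run that begins at the start.
Rps6 (chr4:86857358-86857397, minus strand): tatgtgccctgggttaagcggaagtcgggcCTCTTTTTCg
Rps18 (chr17:33955656-33955695, minus strand): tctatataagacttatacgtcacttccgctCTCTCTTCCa
Rps10 (chr17:27635235-27635274, minus strand): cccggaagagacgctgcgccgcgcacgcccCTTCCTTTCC
Rps15a (chr7:118116138-118116177, minus strand): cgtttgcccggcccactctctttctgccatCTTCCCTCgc
Rpl15 (chr14:18270977-18271016, minus strand): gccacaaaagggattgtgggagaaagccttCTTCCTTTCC
Rpl35 (chr2:39005122-39005161, minus strand): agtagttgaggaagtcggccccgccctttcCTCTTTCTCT
Rpl28 (chr7:4792935-4792974, plus strand): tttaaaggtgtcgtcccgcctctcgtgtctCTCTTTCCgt
Rplp2 (chr7:141447621-141447660, plus strand): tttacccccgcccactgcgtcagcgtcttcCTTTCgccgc
Rpl39 (chrX:37085213-37085252, minus strand): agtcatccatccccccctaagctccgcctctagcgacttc
Rpl13a (chr7:45128736-45128775, minus strand): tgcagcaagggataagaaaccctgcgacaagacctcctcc
Rpl22l1 (chr3:28805478-28805517, plus strand): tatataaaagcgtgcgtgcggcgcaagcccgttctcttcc

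The runs differ in length between these members, and a start annotated a few bases off would hide one. Over the 300-base window from 250 bases before to 50 after the start, searched on both strands, the letters CCGGAAGT, the core of ETS family sites, were found in 18.5% of members and 4.31% of all genes. AAGATGGC, found in sites of the factor YY1, occurred in 9.23% of members and 3.19% of all genes. TATAAA occurred in 10.8% of members and 15.7% of all genes.

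The members described most fully below lie, in GRCm38 with GENCODE M21, at chr4:3831334-3835665 (Rps20, minus strand), chr6:115805505-115808747 (Rpl32, minus), chr12:28630854-28635953 (Rps7, minus), chrX:37082520-37085402 (Rpl39, minus), chr7:45125558-45128761 (Rpl13a, minus), chr3:28805436-28807424 (Rpl22l1, plus), chr17:46773907-46782672 (Rpl7l1, minus) and chr15:80260615-80264315 (Rps19bp1, minus).

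Members differed widely in level. Per kilobase of transcript, Rplp1, which encodes an acidic protein of the ribosomal stalk, was highest at 619 CPM per kilobase over the 18 libraries. Among the next highest were Rps14 at 581, Rpl32 at 551, Rpl4 at 548, Rps9 at 458, Rplp0 at 432 and Rpl10 at 353 CPM per kilobase. The median member stood at 115 CPM per kilobase. The lowest that could be tested were Rpl24 at 2.13, Rpl39l at 2.59, Rps27rt at 9.27, Rpl23a at 9.92, Rpl5 at 18.6, Rps15a at 20.2, Rpl13a at 24.8 and Rps19bp1 at 28.4 CPM per kilobase. These low values carry limits. The principal transcript used for Rps15a is 5130 bases long, and 71.5% of the exon bases of Rpl24, 55.4% of Rpl23a, 46.6% of Rpl5 and 59.3% of Rpl13a lie under exons of other annotated genes.

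Rpl3l, a muscle paralog of Rpl3, was the 1 member that did not pass the filter on low counts: it had counts in 5 of 18 libraries and never more than 3. A floor of 3 counts lay between 0.130 and 0.374 CPM per library. In WT cells the libraries of a genotype differed little for most members, with a median coefficient of variation of 7.36% and a range over members from 0.824% to 25.1% among those tested.

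With TMM scaling, the summed expression of the 85 members separated Tbk1+/- Tak1ΔM/+ and Tak1ΔM/+ cells from the others, in opposite directions. Tbk1+/- Tak1ΔM/+ libraries had 8686, 8534 and 9252 CPM in all, below every other library. Tak1ΔM/+ libraries had 13000, 12820 and 12940 CPM, above every other library. Libraries labelled Tbk1+/- Tak1ΔM/+ Ripk1D138N/+ had 10960, 11380 and 11350 CPM, those labelled Tbk1+/- Ripk1D138N/D138N had 10960, 11140 and 11270 CPM, Tbk1+/- libraries had 11220, 10880 and 12580 CPM, and WT libraries had 11140, 10550 and 9862 CPM. These groups overlapped with one another. Taken as means over 3 libraries, the TMM-scaled sum in Tbk1+/- Tak1ΔM/+ cells was 83.9% and in Tak1ΔM/+ cells 123% of that in WT cells. As a share of all counts, with no TMM factor, neither group stood apart. Members took 0.963%, 0.945% and 1.032% of counts in Tbk1+/- Tak1ΔM/+ libraries and 1.031%, 0.988% and 1.045% in WT libraries. They took 1.414%, 1.204% and 1.197% in Tak1ΔM/+ libraries and 1.229% in Tbk1+/- replicate 3. Marker sums moved with these genotypes as well. Microglia markers summed to 9019, 8862 and 8731 CPM in Tak1ΔM/+ libraries, above every other library, and to between 7361 and 7954 CPM in WT. In Tbk1+/- Tak1ΔM/+ libraries they summed to between 7169 and 7988 CPM, which overlaps WT. Within the oligodendrocyte-lineage list Olig2 stood at 4.45, 4.28 and 6.02 CPM and Pdgfra at 4.93, 9.80 and 7.31 CPM in Tbk1+/- Tak1ΔM/+ libraries, above every other library, where they reached at most 2.92 and 3.02 CPM. The sum of that list was 71.0 to 83.9 CPM in Tbk1+/- Tak1ΔM/+ and 62.2 to 73.1 CPM in WT libraries, with Mog at 0 in both. Astrocyte markers summed to 14.7 to 22.8 CPM in Tbk1+/- Tak1ΔM/+ and 27.4 to 38.0 CPM in WT libraries, fibroblast, mural and endothelial markers to 3.34 to 4.83 CPM in Tbk1+/- Tak1ΔM/+ and 8.36 to 29.3 CPM in WT, and other blood markers to 0.298 to 1.13 CPM in Tbk1+/- Tak1ΔM/+ and 2.09 to 3.77 CPM in WT. The part of these cells in the results was not tested. In bulk RNA a smaller number of cells of a type and less RNA per cell cannot be told apart.

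**Figure D1:**
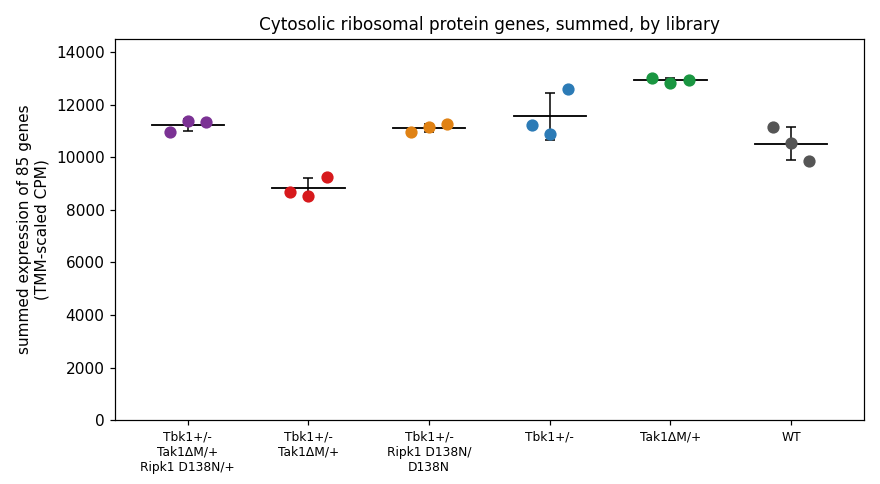
Summed expression of the 85 genes in each library (points, TMM-scaled CPM on a linear axis from 0), with the mean (line) and SD (bar) of the 3 libraries of a genotype. The Tbk1+/- Tak1ΔM/+ libraries lie between 8534 and 9252 CPM, below the rest, and the Tak1ΔM/+ libraries between 12820 and 13000 CPM, above the rest. As shares of counts with no TMM factor, both groups overlap with others.

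Both subunits contributed to the sum. The ratio of summed large-subunit to small-subunit expression was 1.33 ± 0.0149 in libraries labelled Tbk1+/- Tak1ΔM/+ Ripk1D138N/+, 1.37 ± 0.0308 in Tbk1+/- Tak1ΔM/+, 1.34 ± 0.0199 in those labelled Tbk1+/- Ripk1D138N/D138N, 1.31 ± 0.0196 in Tbk1+/-, 1.31 ± 0.0243 in Tak1ΔM/+ and 1.34 ± 0.0197 in WT (SD, n = 3 each). In the overall test of the 6 genotypes by edgeR's quasi-likelihood method, 38 of the 84 tested members passed an adjusted p of 0.05, against 7.18% of all 13447 genes tested. They were 19 of 50 large-subunit and 19 of 34 small-subunit members. That count was 10, 12 and 15 without Tbk1+/- Tak1ΔM/+ replicates 1, 2 and 3 and 22 without Tak1ΔM/+ replicate 2. A fit with a covariate for the mitochondrial share of counts gave 13.

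**Figure D2:**
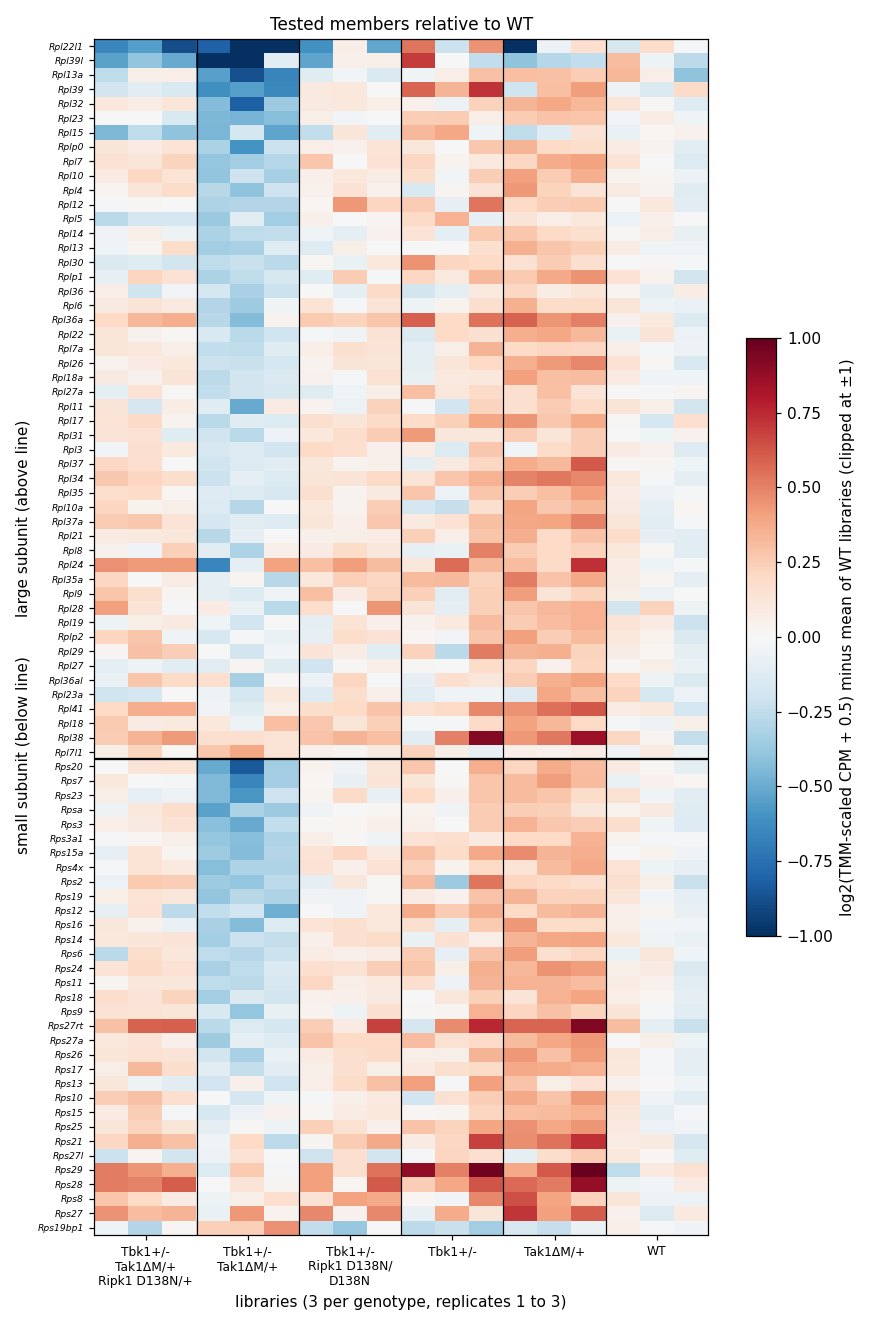
Expression of tested members (rows, large subunit above the line) in 18 libraries (columns), as log2(TMM-scaled CPM + 0.5) minus the mean of the WT libraries, blue for lower and red for higher. The Tbk1+/- Tak1ΔM/+ columns are blue for most members, the Tak1ΔM/+ columns red, and Rps19bp1 and Rpl7l1 run the other way in Tbk1+/- Tak1ΔM/+ cells.

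The 2 single heterozygous genotypes were set against WT to ask what each kinase allele does alone. In Tak1ΔM/+ cells no member passed the adjusted test, where 0.0149% of all genes did. Even so, 80 of 84 members had positive fold changes, and the median log2 fold change was 0.30, against 0.00 for all genes. Unadjusted p-values were under 0.05 for 55 members, and for 72 members all Tak1ΔM/+ libraries lay above all WT libraries, as they did for 7.75% of all genes. DESeq2 called 11 members in this comparison and limma-voom 0, where they called 82 and 1 of all genes. The smallest p-values belonged to Rpl34, Rpl41 and Rps25, subunits of the large (Rpl34, Rpl41) and small (Rps25) particle.

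Rpl34 had 157, 161 and 156 CPM in Tak1ΔM/+ cells and 120, 111 and 105 CPM in WT cells, a log2 fold change of 0.50 ± 0.0960 (SE, adjusted p = 0.173). Rpl41 had 188, 201 and 211 CPM in Tak1ΔM/+ cells and 144, 147 and 121 CPM in WT cells, a log2 fold change of 0.54 ± 0.114 (adjusted p = 0.242). The libraries of both genotypes did not overlap for either gene, and neither passed the adjusted test. Y-linked genes summed to 3.02, 0 and 0 CPM in Tak1ΔM/+ libraries and to 107, 50.2 and 0 CPM in WT libraries. A fit with Y-linked expression as a covariate, added after seeing the data, called 2 members, with a members' median of 0.32. The share of all genes called in that fit is not given here.

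In Tbk1+/- cells no member passed the test against WT, where 0.0521% of all genes did. The median log2 fold change of the members was 0.15, with 80 of 84 positive, 16 at an unadjusted p under 0.05 and 17 without overlap on the higher side, against 6.28% of all genes. DESeq2 called 1 member and limma-voom 0, and edgeR called 2 without Tbk1+/- replicate 2. Calls over all genes in these fits were 104, 3 and 340 in that order. The members' median was 0.07 without Tbk1+/- replicate 3, 0.20 without replicate 2 and 0.16 without replicate 1. Rps29, a zinc-binding protein of the small subunit, had 53.6, 40.9 and 56.5 CPM in Tbk1+/- cells and 24.04, 30.7 and 32.1 CPM in WT cells, a log2 fold change of 0.80 ± 0.188 (adjusted p = 0.150). Rpl39, a short protein that lines the exit tunnel of the large subunit, had 77.4, 65.6 and 85.6 CPM in Tbk1+/- cells and 49.7, 46.8 and 59.1 CPM in WT cells, a log2 fold change of 0.56 ± 0.151 (adjusted p = 0.234).

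In Tbk1+/- Tak1ΔM/+ cells the direction was down. Against WT, 12 members fell and none rose, where 3.90% of all genes were called lower, 2.16% higher and 6.07% at all. The 12 were 5 of 50 large-subunit members (Rpl22l1, Rpl13a, Rpl39, Rpl32, Rpl23) and 7 of 34 small-subunit members (among them Rps20, Rps7, Rpsa, Rps3, Rps3a1 and Rps15a). Of all 84, 75 had negative fold changes, with a median log2 fold change of -0.20 against 0.00 for all genes, and for 46 every Tbk1+/- Tak1ΔM/+ library lay below every WT library, as for 14.4% of all genes.

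Rpl32, a large-subunit protein often used as a reference gene, had 205, 157 and 215 CPM in Tbk1+/- Tak1ΔM/+ cells and 301, 279 and 253 CPM in WT cells (log2 fold change -0.53 ± 0.119, adjusted p = 0.0140). Rps20, a protein of the head of the small subunit, had 159, 126 and 178 CPM in Tbk1+/- Tak1ΔM/+ cells and 239, 228 and 211 CPM in WT cells (-0.55 ± 0.127, adjusted p = 0.0167). Rps7, another small-subunit protein, had 83.1, 71.6 and 88.6 CPM in Tbk1+/- Tak1ΔM/+ cells and 107.9, 116 and 114 CPM in WT cells (-0.47 ± 0.109, adjusted p = 0.0167). In none of these did the genotypes overlap.

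The largest decrease was that of Rpl22l1, the paralog of Rpl22, at 29.7, 19.6 and 17.4 CPM in Tbk1+/- Tak1ΔM/+ cells and 46.8, 59.5 and 51.6 CPM in WT cells (-1.24 ± 0.300, adjusted p = 0.0211). Of its exon bases 28.8% lie under exons of other genes. Rpl39 had 33.6, 35.0 and 32.8 CPM in Tbk1+/- Tak1ΔM/+ cells and 49.7, 46.8 and 59.1 CPM in WT cells (-0.62 ± 0.153, adjusted p = 0.0232). Rpl13a, which outside the ribosome blocks translation of some inflammatory messenger RNAs, had 18.1, 14.3 and 16.7 CPM in Tbk1+/- Tak1ΔM/+ cells and 33.8, 27.9 and 20.1 CPM in WT cells (-0.73 ± 0.181, adjusted p = 0.0232). Rpl23 fell by 0.45, Rpsa by 0.41, Rps3 by 0.39, Rps3a1 by 0.37 and Rps15a by 0.36 on the log2 scale.

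This set of calls was sensitive to single libraries. Calls over all genes were 392, 419 and 284 without Tbk1+/- Tak1ΔM/+ replicates 1, 2 and 3. The count of members was 6, 1 and 6 in these fits, and 4 and 5 without WT replicates 1 and 2. It was 2, with 1 higher and 1 lower, when libraries were scaled to their totals with no TMM factor, where 921 of all 13447 genes were called. That scaling moved the median log2 fold change of all genes to 0.19 and left the members' median at -0.01. Members thus lay below other genes under both scalings, and near 0 as a share of total counts under the second. Neither scaling measures an absolute amount. In the comparisons of Tbk1+/- Tak1ΔM/+ with Tbk1+/- and with Tak1ΔM/+ it moved the median of all genes to 0.24 and 0.18, with members at -0.16 and -0.36.

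Against each single heterozygote, which asks what the second allele adds, more members fell. Relative to Tbk1+/- cells, 43 members fell and 1 rose, where 8.24% of all genes were called lower, 6.44% higher and 14.7% at all. The median log2 fold change was -0.38, and 56 members lay wholly below the Tbk1+/- libraries, as did 16.4% of all genes. Relative to Tak1ΔM/+ cells, 47 fell and none rose, where 2.05% of all genes were called lower, 0.736% higher and 2.79% at all, with a median of -0.54 and 74 members wholly below the Tak1ΔM/+ libraries, as were 12.5% of all genes. Of the small-subunit members, 22 of 34 fell against Tbk1+/- and 23 of 34 against Tak1ΔM/+. Of the large-subunit members, 21 and 24 of 50 fell. The comparisons of Tbk1+/- Tak1ΔM/+ cells share those 3 libraries, so their values stand side by side and are not independent. With total counts and no TMM factor, 7 fell and 2 rose against Tbk1+/-, and 16 fell and none rose against Tak1ΔM/+. Of all 13447 genes tested, 2300 and 226 were called in these 2 fits.

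Rps20 had 272, 227 and 292 CPM in Tbk1+/- cells and 262, 292 and 280 CPM in Tak1ΔM/+ cells, and its log2 fold change in Tbk1+/- Tak1ΔM/+ cells was -0.77 ± 0.127 against Tbk1+/- (adjusted p = 0.000956) and -0.85 ± 0.127 against Tak1ΔM/+ (adjusted p = 0.00151). Rpl32 had 352, 362 and 349 CPM in Tak1ΔM/+ cells, and its log2 fold change in Tbk1+/- Tak1ΔM/+ cells against them was -0.88 ± 0.119 (adjusted p = 0.00101). Rpl39 fell by 1.17 ± 0.153 against Tbk1+/- (adjusted p = 0.000279). Rpl22l1 fell by 1.53 ± 0.302 against Tbk1+/- (adjusted p = 0.00281), and its libraries spread more widely, with 76.1, 45.1 and 71.8 CPM in Tbk1+/- and 23, 50.4 and 59.0 CPM in Tak1ΔM/+ cells, where it did not pass the test (-0.98, adjusted p = 0.0946).

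Other members with large decreases were small-subunit Rps29, Rps12 and Rps15a and large-subunit Rpl36a, Rpl23 and Rpl15 against Tbk1+/-, from -0.77 for Rps29 to -0.62 for Rpl15. Against Tak1ΔM/+ they included Rpl13a at -0.99, Rps7 at -0.83, Rpl39 at -0.81, Rps15a at -0.76, Rpl36a at -0.73, Rpl23 at -0.72 and Rps3 at -0.68. The counts were 25 against Tbk1+/- and 24 against Tak1ΔM/+ without Tbk1+/- Tak1ΔM/+ replicate 1, where 1282 and 113 of all genes were called. Against Tak1ΔM/+ they were 31 and 30 without Tbk1+/- Tak1ΔM/+ replicate 2 and Tak1ΔM/+ replicate 3. In the former of these, 151 of all genes were called.

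The mitochondrial share differed between the genotypes compared. Mitochondrially encoded genes took 0.512%, 0.508% and 0.367% of counts in Tbk1+/- Tak1ΔM/+ cells. They took 2.20%, 1.82% and 2.00% in Tbk1+/- cells and 1.42%, 1.62% and 0.671% in WT cells, neither overlapping with Tbk1+/- Tak1ΔM/+. In Tak1ΔM/+ cells they took 0.453%, 1.414% and 1.505%, of which replicate 1 lay within the range of Tbk1+/- Tak1ΔM/+. With that share as a covariate 0 members were called against Tbk1+/-, 34 against Tak1ΔM/+ and 2 against WT. The members' median log2 fold changes were then -0.36, -0.52 and -0.18 in these comparisons, against -0.38, -0.54 and -0.20 without it. Calls over all genes went down too, to 49, 150 and 216, against 1974, 375 and 816 without it. A low share was also found outside this genotype, with 0.370% in replicate 1 labelled Tbk1+/- Tak1ΔM/+ Ripk1D138N/+, 0.451% and 0.449% in replicates 1 and 3 labelled Tbk1+/- Ripk1D138N/D138N, 0.453% in Tak1ΔM/+ replicate 1 and the 0.671% of WT replicate 3. Their summed member expression with TMM scaling was 10960, 10960, 11270, 13000 and 9862 CPM in that order, and 8534 to 9252 CPM in Tbk1+/- Tak1ΔM/+ libraries. Shares were higher in replicates 2 and 3 labelled Tbk1+/- Tak1ΔM/+ Ripk1D138N/+ (1.095% and 1.051%) and replicate 2 labelled Tbk1+/- Ripk1D138N/D138N (1.565%). Those 3 libraries had sums of 11380, 11350 and 11140 CPM. Tak1ΔM/+ replicates 2 and 3 had sums of 12820 and 12940 CPM, and WT replicates 1 and 2 of 11140 and 10550 CPM. With no TMM factor, members took 1.045% of counts in WT replicate 3 and 1.032% in Tbk1+/- Tak1ΔM/+ replicate 3. The part of the mitochondrial share in the decrease was not tested.

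**Figure D3:**
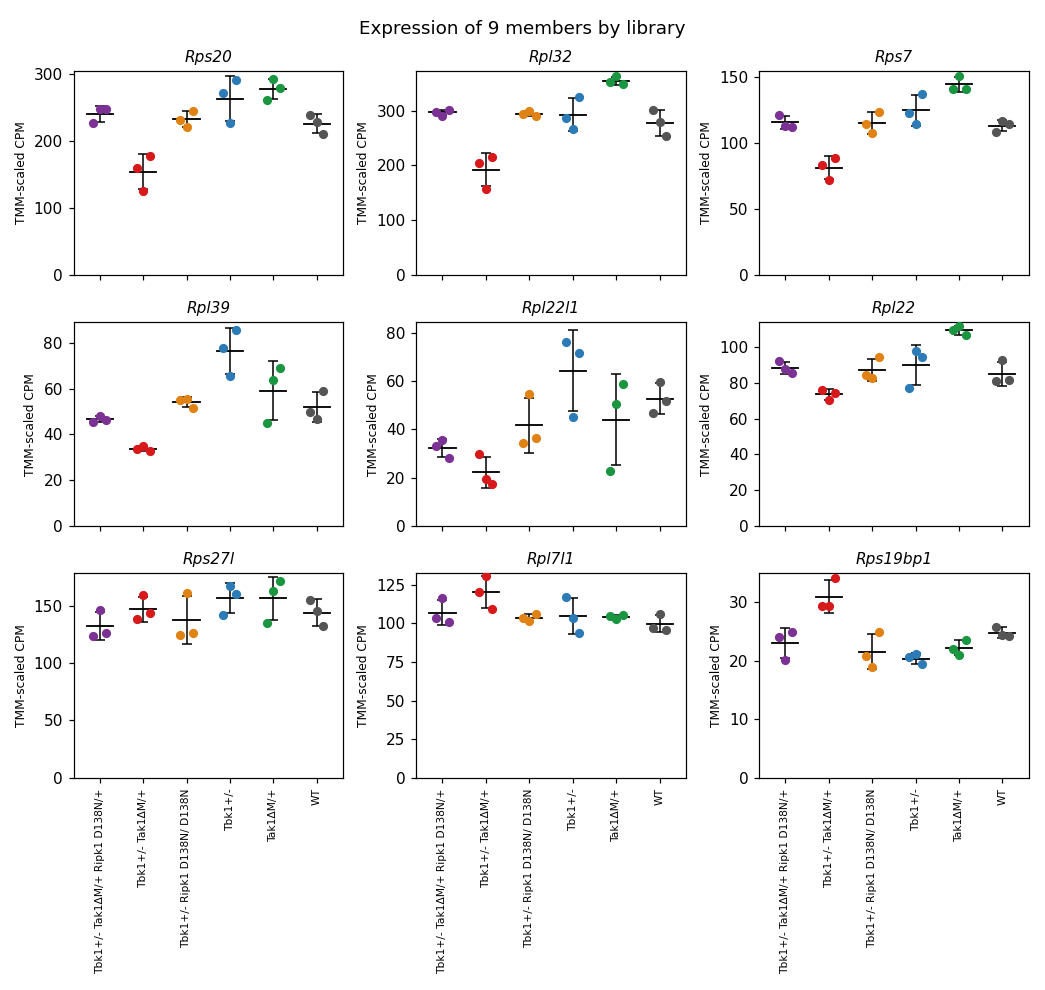
TMM-scaled CPM of 9 members in each library (points) with mean and SD of 3 libraries, on linear axes from 0, genotypes from left to right as named on the lowest row. Rps20, Rpl32, Rps7 and Rpl39 are lowest in Tbk1+/- Tak1ΔM/+ cells, Rpl7l1 and Rps19bp1 are not, and Rpl22l1 spans 23 to 59.0 CPM among Tak1ΔM/+ libraries.

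The interaction of both alleles was tested directly, as the change of Tbk1+/- Tak1ΔM/+ from Tak1ΔM/+ minus the change of Tbk1+/- from WT. It was called for 44 members, all with a negative sign, where 1.21% of all genes were called negative, 0.528% positive and 1.74% at all, and the members' median was -0.69 on the log2 scale. These were 21 of 50 large-subunit and 23 of 34 small-subunit members. The most negative were Rps29 at -1.47 ± 0.266 (adjusted p = 0.0128), Rpl39 at -1.36 ± 0.215 (adjusted p = 0.00856) and Rpl36a at -1.19 ± 0.213 (adjusted p = 0.0117). Rpl13a and Rps20 followed at -1.07, Rps28 and Rps15a at -1.05, Rps7 at -0.97, and Rps21 and Rpl32 at -0.96. The value also holds the fold changes of both single genotypes against WT, which passed the test for no member. The count lay between 16 (without Tbk1+/- Tak1ΔM/+ replicate 1) and 56 (without Tbk1+/- replicate 2), and was 27 and 28 without Tbk1+/- Tak1ΔM/+ replicates 2 and 3, 23 without Tbk1+/- replicate 3, 26 and 23 without Tak1ΔM/+ replicates 2 and 3, and 26 and 25 without WT replicates 2 and 3. Calls over all genes were 64, 84 and 92 without Tbk1+/- Tak1ΔM/+ replicates 1, 2 and 3. A covariate for the mitochondrial share left 4 calls, with a members' median of -0.65, and 14 calls over all genes against 234 without it. Without TMM factors the members' median was -0.48 and that of all genes 0.21.

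The libraries labelled Tbk1+/- Tak1ΔM/+ Ripk1D138N/+ were compared with Tbk1+/- Tak1ΔM/+ to ask what an inactive RIPK1 allele changes. In them 15 members rose and none fell, where 1.84% of all genes were called higher, 0.617% lower and 2.45% at all. Of these, 10 were small-subunit and 5 large-subunit members. The median log2 fold change was 0.30, 79 of 84 were positive, and 59 lay wholly above the Tbk1+/- Tak1ΔM/+ libraries, as did 12.8% of all genes. Rps20 had 227, 248 and 248 CPM in them and 159, 126 and 178 CPM in Tbk1+/- Tak1ΔM/+ cells (0.64 ± 0.127, adjusted p = 0.0117). Rpl32 had 298, 291 and 301 CPM in them and 205, 157 and 215 CPM in Tbk1+/- Tak1ΔM/+ cells (0.62 ± 0.119, adjusted p = 0.00922).

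Further members that rose there included Rpl7 (0.51), Rps7 (0.50), Rps3 (0.49), Rpsa (0.48), Rplp0 (0.48), Rpl10 (0.45) and Rps19 (0.43). This count rests on few libraries: it was 2 and 0 without replicates 2 and 3 labelled Tbk1+/- Tak1ΔM/+ Ripk1D138N/+, 2, 1 and 7 without Tbk1+/- Tak1ΔM/+ replicates 1, 2 and 3, and 9 without WT replicate 2. Calls over all genes fell too, from 330 to 97 and 95 without the libraries so labelled. They were 99, 103 and 161 without Tbk1+/- Tak1ΔM/+ replicates 1, 2 and 3. With total counts and no TMM factor the count of members was 0, where 236 of all 13447 genes were called. Since Tbk1 in all these libraries stood at the level of cells with both alleles, a difference made by Ripk1 and one made by Tbk1 cannot be told apart here. Against WT no member was called in them, nor any gene, 0% of those tested. The median of the members was 0.10, and 7 members and 1074 genes had an unadjusted p under 0.05. Of 84 members 66 were positive. In this comparison 20 lay wholly above and 5 wholly below the WT libraries, as did 905 and 1011 of all 13447 genes. DESeq2 and limma-voom called 0 members.

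In libraries labelled Tbk1+/- Ripk1D138N/D138N the members stood near WT. No member was called against WT, where 0% of genes were, with a median of 0.08 and 3 members at an unadjusted p under 0.05, and DESeq2 and limma-voom called 0. Of 84 members 72 were positive, and 18 lay wholly above the WT libraries, as did 759 of all 13447 genes. Against Tbk1+/- no member was called, where 0.521% of genes were. DESeq2 called 1 member and 511 of all genes, limma-voom 0 members and 55 genes, and edgeR 1 member without Tbk1+/- replicate 2. The members' median was -0.06, and 7 members had an unadjusted p under 0.05. Among these the smallest p-values were those of Rpl39, which had 55.1, 55.6 and 51.6 CPM in the libraries so labelled and 77.4, 65.6 and 85.6 CPM in Tbk1+/- cells (-0.49 ± 0.151, adjusted p = 0.132), Rpl30 (-0.27) and Rps12 (-0.31).

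Calls relative to the family itself were also made. When libraries were scaled by the summed member counts, a call means a change relative to the family. In Tbk1+/- Tak1ΔM/+ against Tak1ΔM/+ cells this scaling called 8 members, where 32.4% of all genes were called, and in 4 of them the change was upward: Rps19bp1 (1.02), Rpl7l1 (0.76), Rps27l (0.46) and Rpl18 (0.36). The others were lower even than the family, among them Rpl13a (-0.44), Rpl32 (-0.33) and Rps20 (-0.30). In Tbk1+/- Tak1ΔM/+ against WT cells it called 3 members higher and 1 lower, Rpl22l1 (-0.99), where 10.5% of all genes were called. Against Tbk1+/- it called 4 higher and 3 lower, Rpl22l1 (-1.13), Rpl39 (-0.78) and Rps20 (-0.38), where 26.3% were called. In the interaction it called 3 higher and 2 lower, Rps29 (-0.77) and Rpl39 (-0.66), where 25.8% were called.

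Rps19bp1 had 29.3, 29.3 and 34.1 CPM in Tbk1+/- Tak1ΔM/+ cells, 20.5, 21.1 and 19.4 CPM in Tbk1+/- cells, 22.05, 21.02 and 23.6 CPM in Tak1ΔM/+ cells and 25.8, 24.4 and 24.1 CPM in WT cells. It was the 1 member that rose against Tbk1+/- with TMM scaling (0.60 ± 0.149, adjusted p = 0.0111). Rpl7l1 had 120.5, 130.5 and 109.7 CPM in Tbk1+/- Tak1ΔM/+ cells, 117, 104 and 94.0 CPM in Tbk1+/- cells, 105, 103 and 105 CPM in Tak1ΔM/+ cells and 97.4, 106 and 96.1 CPM in WT cells, and was not called with TMM scaling. Both encode proteins that are not core subunits.

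Calls were uneven among paralogs and their partners. Rps27l, a p53-responsive paralog of Rps27, had 138.5, 159 and 144 CPM in Tbk1+/- Tak1ΔM/+ cells and 155, 146 and 132 CPM in WT cells, and was called in no comparison with TMM scaling. Rpl22 fell against Tak1ΔM/+ (-0.57, adjusted p = 0.00993) but was not called against WT (-0.21, adjusted p = 0.308), where its paralog Rpl22l1 was. Rpl39 fell in all 3 comparisons of Tbk1+/- Tak1ΔM/+ cells, while Rpl39l, known for its expression in testis, stood at between 0.901 and 4.29 CPM in the libraries and passed in none. Rpl36a fell against both single genotypes, Rpl36al against neither (-0.10 and -0.37, adjusted p = 0.697 and 0.215). Differences between paralogs were not tested. Rps4x, an X-linked small-subunit gene, fell against Tbk1+/- (-0.51) and Tak1ΔM/+ (-0.63) and rose in libraries labelled Tbk1+/- Tak1ΔM/+ Ripk1D138N/+ (0.42).

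Among stalk genes, calls differed by comparison. Rplp0, the scaffold of the stalk, had 455, 374 and 490 CPM in Tbk1+/- Tak1ΔM/+ cells and 599, 582 and 525 CPM in WT cells, without overlap (-0.37 ± 0.112, adjusted p = 0.0573). It fell against Tbk1+/- (-0.50) and Tak1ΔM/+ (-0.61). Rplp1 fell against both of them (-0.46 and -0.61), and Rplp2 against neither (-0.18 and -0.41, adjusted p = 0.381 and 0.0937). Rpsa, which encodes a small-subunit protein and laminin receptor, fell against WT (-0.41), Tbk1+/- (-0.50) and Tak1ΔM/+ (-0.61).

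Some members are known for roles outside the ribosome. Of Rpl5 and Rpl11, whose free proteins bind MDM2, Rpl5 fell against Tbk1+/- (-0.44, adjusted p = 0.0280) and not against Tak1ΔM/+ (-0.38, adjusted p = 0.138), and Rpl11 passed in neither (-0.18 and -0.36). Rps6, the substrate of S6 kinase, fell against Tbk1+/- (-0.42) and Tak1ΔM/+ (-0.52). Rps19, a gene mutated in Diamond-Blackfan anemia, fell against both (-0.47 and -0.60).

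Other genes of the translation machinery were counted from lists. Of 22 translation factors and other TOP messenger RNAs, 12 (54.5%) fell and none rose in Tbk1+/- Tak1ΔM/+ against WT cells, where 3.90% of all genes were called lower, with a median log2 fold change of -0.45. They included Npm1, a nucleolar chaperone (-1.25, adjusted p = 3.41e-05), the initiation factor subunit gene Eif3e (-0.91), Tpt1 (-0.75) and the elongation factor subunit gene Eef1b2 (-0.61). In that list 10 fell against Tbk1+/- and 11 against Tak1ΔM/+, where 8.24% and 2.05% of all genes were called lower. In libraries labelled Tbk1+/- Tak1ΔM/+ Ripk1D138N/+ against Tbk1+/- Tak1ΔM/+ 7 rose, where 1.84% of all genes were called higher. Eef1a1, which delivers aminoacyl-tRNA, had 2424, 2182 and 2574 CPM in Tbk1+/- Tak1ΔM/+ cells and 3640, 3527 and 2966 CPM in WT cells (-0.50).

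Tested too were 76 ribosome biogenesis factors. In Tbk1+/- Tak1ΔM/+ against WT cells 2 rose, Utp18 (1.504) and Rrn3 (0.59), none fell, and the median was 0.30. These are 2.63% of the list, near the 2.16% of all genes called higher. Against Tbk1+/- 24 rose and 1 fell, or 32.9% called, where 6.44% of all genes were called higher and 14.7% at all, with a median of 0.36. The largest increases were those of Gar1 (2.19), Utp18 (1.33), Nop56 (1.28) and Rrp9 (1.22), genes for pre-ribosomal RNA processing or modification, and Nsa2 fell (-0.62). Against Tak1ΔM/+ 1 rose (Bop1, 0.64) and 1 fell (Nsa2, -0.73), or 2.63%, near the 2.79% of all genes called.

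Among 77 mitochondrial ribosomal protein genes, 1 rose against WT, Mrps28 (0.77), and the median was 0.01. That is 1.30% of the list, below the 6.07% of all genes called. Against Tbk1+/- 3 were called, or 3.90%, where 14.7% of all genes were: Mrps26 rose (0.72), and Mrps18c (-1.16) and Mrpl18 (-0.78) fell. Of 22 regulators of ribosomal protein synthesis, Rptor (0.74) and Eif4g1 (0.57) rose and Eif4ebp2 (-0.73) fell against WT, 3 calls or 13.6% where 6.07% of all genes were called. Against Tbk1+/- 5 were called, or 22.7% where 14.7% of all genes were: Myc (0.95), Eif4g1 (0.81), Eif2ak2 (0.78) and Rptor (0.63) rose and Eif4ebp2 (-0.77) fell. Fau, a ribosomal protein gene outside the symbol rule, fell against Tak1ΔM/+ (-0.46, adjusted p = 0.0210).

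**Figure D4:**
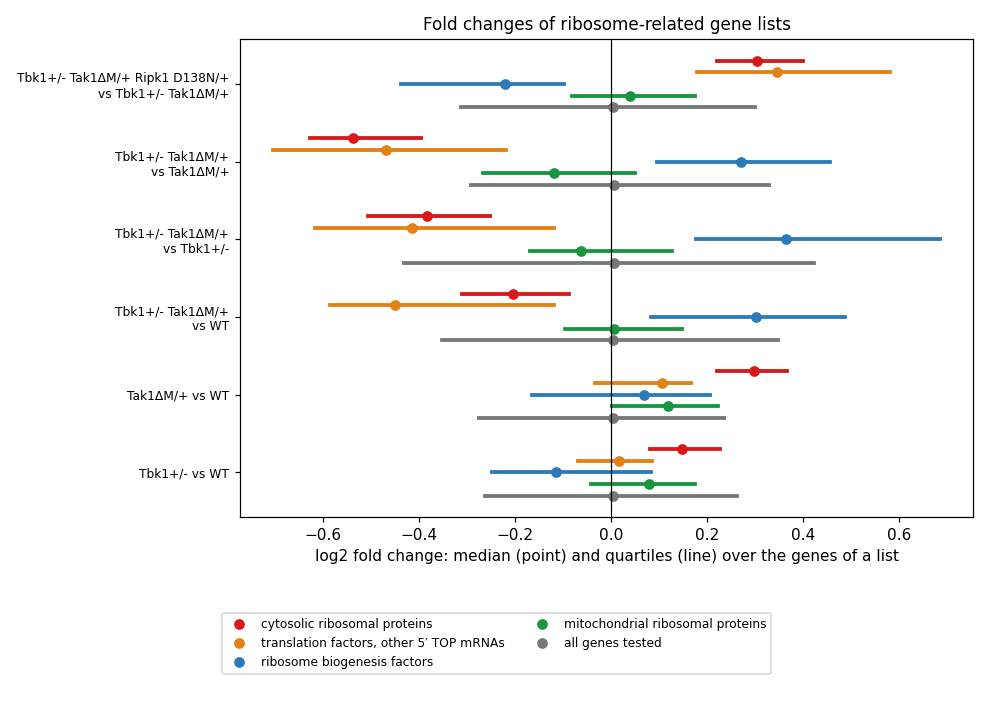
Median (point) and quartiles (line) of log2 fold changes over the genes of each list in 6 comparisons, the first-named genotype over the second. In Tbk1+/- Tak1ΔM/+ against WT cells the median is -0.20 for cytosolic ribosomal proteins, -0.45 for translation factors, 0.30 for biogenesis factors and 0.01 for mitochondrial ribosomal proteins. Comparisons share libraries and their points are not independent.

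Ribosomal protein genes have many processed copies in the genome, so sequence sharing was measured. Of the 85 members, 81 shared at least 1 stretch of 50 bases with another annotated gene. The median member had 44.5% of its 50-base stretches in no other gene, from 1.35% in Rps27 to 100%, and 19 members were under 20%. Members with at least 50% unique stretches and those with fewer gave 22 of 34 and 25 of 50 calls in Tbk1+/- Tak1ΔM/+ against Tak1ΔM/+ cells, with medians of -0.57 and -0.49. Rows of 283 annotated pseudogene symbols with -ps took from 0.0122% to 0.0198% of counts. Members with exons under other genes gave 5 of 15 calls, and those without 42 of 69.

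**Figure D5:**
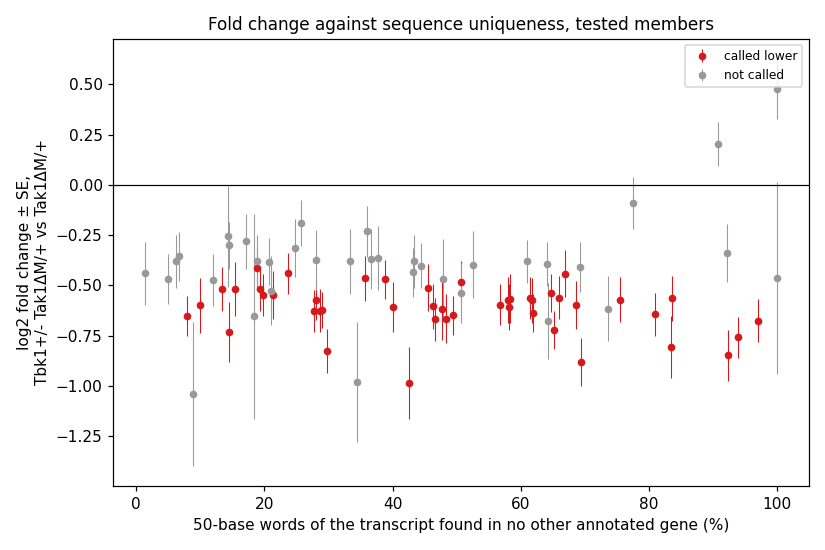
Log2 fold change in Tbk1+/- Tak1ΔM/+ against Tak1ΔM/+ cells (± SE, vertical axis) by the share of 50-base stretches found in no other annotated gene (horizontal axis, percent), red where called lower. Called members lie along the whole range, and the few positive values belong to members with a high share.

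The 14 members with an annotated pyrimidine start gave 5 calls in that comparison with a median of -0.48, and the 50 others tested with a start in the promoter table gave 30 with a median of -0.57. Members with a mean of at least 100 CPM gave 32 of 41 calls, and those below it gave 15 of 43, with median SEs of 0.108 and 0.138. All 4 X-linked members, Rpl10, Rpl36a, Rpl39 and Rps4x, fell against both single genotypes. Y-linked genes summed to 93.8, 99.5 and 75.9 CPM in Tbk1+/- Tak1ΔM/+, to 59.8, 187 and 123 CPM in Tbk1+/- and to 3.02, 0 and 0 CPM in Tak1ΔM/+ libraries, so the comparison with Tak1ΔM/+ is also split by Y-linked expression. With it as a covariate 46 of the 84 members fell against Tak1ΔM/+ and the median was -0.56, and the share of all genes called is not given here.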

How the data were processed

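RNA was sequenced from 18 libraries (6 genotypes, 3 each), made with oligo(dT) primers from 1 ng of RNA with 12 cycles of PCR, and read as pairs of 50 bases, per the labels' protocols. The deposited values are raw read counts per gene, not normalized. STAR, featureCounts and mm10 come from the submitters' processing notes, whereas the labels' protocols name RSEM. Versions, annotation and strand setting are not given in the sources used here. The chemistry does not mark strand, so reads of a gene and an overlapping antisense gene could not be told apart.

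Symbols, exons and coordinates are from GENCODE M21 (GRCm38). Genes passing filterByExpr (13447) were tested with the quasi-likelihood test of edgeR 4.0.16 in R 4.3.3, in 1 fit over all 18 libraries with a term for each genotype, TMM scaling and Benjamini-Hochberg adjustment over all genes tested. A call is an adjusted p under 0.05, and "rose" and "fell" are used of calls alone. CPM are counts divided by the TMM-scaled total times 1e+06, and log2 fold changes are given ± SE. Levels per kilobase use the principal transcript. Chi-square per degree of freedom between libraries of a genotype was at least 8.75, so none was taken as a repeat. Alternatives were DESeq2 1.42.0, limma-voom 3.58.1, other scalings and filters, covariates, a replicate block and leaving out libraries. The code was tested on simulated data.

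Members, lists and tests were chosen with earlier results of these data known. Named are the stalk genes and Rpsa, paralogs and their partners, 6 members with other known roles, the 8 highest and 8 lowest per kilobase, up to 10 called members per direction and comparison or the 3 smallest p-values, and up to 4 called genes per list and direction. Other members are named to complete a count, after their values were seen. Some genes are not reported here by name, though counts and medians include them. Set tests were not used. Counting intervals cover counting error only, since reads carry no molecular identifiers.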

Additional observations from a re-analysis of the deposited data

Results flagged for a closer look

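The interaction of the Tbk1+/- and Tak1ΔM/+ alleles differed from 0 for 44 members, by edgeR's quasi-likelihood test, where 1.74% of all genes were called. The largest 10 were Rps29 (-1.47), Rpl39 (-1.36), Rpl36a (-1.19), Rpl13a (-1.07), Rps20 (-1.07), Rps28 (-1.05), Rps15a (-1.05), Rps7 (-0.97), Rps21 (-0.96) and Rpl32 (-0.96), all log2 values of the change in Tbk1+/- Tak1ΔM/+ from Tak1ΔM/+ cells minus that in Tbk1+/- from WT cells. They stand here because the effect of 1 allele differed with the other by a test of the difference itself. The count of members was 16 without Tbk1+/- Tak1ΔM/+ replicate 1 and 8 without TMM factors, where 64 and 175 of all genes were called. With a covariate for the mitochondrial share it was 4, and 14 over all genes.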

How the results depend on the processing

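Counts of called members are given. Without TMM scaling they were 6 for the test of all genotypes, 2 for Tbk1+/- Tak1ΔM/+ against WT, 9 against Tbk1+/-, 16 against Tak1ΔM/+, 0 for libraries labelled Tbk1+/- Tak1ΔM/+ Ripk1D138N/+ against Tbk1+/- Tak1ΔM/+ and 8 for the interaction. After the test of all genotypes, calls over all genes were 921, 2300, 226, 236 and 175 in that order. Scaling by the summed member counts, which removes the shared change by construction, gave 4, 4, 7, 8, 3 and 5 for the same 6. Of all genes, 23.7%, 10.5%, 26.3%, 32.4%, 9.98% and 25.8% were called under that scaling. There Rps6 (0.031) and Fau (0.085) against Tak1ΔM/+ and Rpl22 (0.04) and Eef1a1 (0.015) in the interaction turned positive without passing. The cause of the other changes was not tested. With no low-count filter the counts were 24 for the test of all genotypes, 1 for Tbk1+/- against WT, 6 and 26 for Tbk1+/- Tak1ΔM/+ against WT and Tbk1+/-, 1 for libraries labelled Tbk1+/- Tak1ΔM/+ Ripk1D138N/+ against WT and 4 for these against Tbk1+/- Tak1ΔM/+. After the test of all genotypes, calls over all genes were 293, 1404, 2366, 193 and 864 in that order. DESeq2 gave 1 for Tbk1+/- against WT, 11 for Tak1ΔM/+ against WT, 21 for Tbk1+/- Tak1ΔM/+ against WT, 1 for libraries labelled Tbk1+/- Ripk1D138N/D138N against Tbk1+/- and 28 for libraries labelled Tbk1+/- Tak1ΔM/+ Ripk1D138N/+ against Tbk1+/- Tak1ΔM/+. It called 104, 82, 1453, 511 and 739 of all genes in that order. The mitochondrial covariate gave 13 for the test of all genotypes, 2 and 0 for Tbk1+/- Tak1ΔM/+ against WT and Tbk1+/-, and 4 for the interaction. After the test of all genotypes, calls over all genes were 216, 49 and 14. Fits on the genotypes compared alone gave 25 for Tbk1+/- Tak1ΔM/+ against Tbk1+/-, 6 for libraries labelled Tbk1+/- Tak1ΔM/+ Ripk1D138N/+ against Tbk1+/- Tak1ΔM/+ and 21 for the interaction. Calls over all genes were 1712, 509 and 107 in these fits. Without both genotypes whose Tbk1 went against the labels, members called were 7 for Tbk1+/- Tak1ΔM/+ against WT and 21 for the interaction, where 741 and 107 of all genes were called. A Y-linked covariate, chosen after seeing the data, gave 2 for Tak1ΔM/+ against WT and 23 for libraries labelled Tbk1+/- Tak1ΔM/+ Ripk1D138N/+ against Tbk1+/- Tak1ΔM/+. Calls over all genes with this covariate are not given here, so its counts cannot be set against a share.

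Leaving out each library in turn gave 10 to 43 for the test of all genotypes, 0 to 2 for Tbk1+/- against WT, 1 to 18 for Tbk1+/- Tak1ΔM/+ against WT, 25 to 50 against Tbk1+/-, 24 to 54 against Tak1ΔM/+, 0 to 1 for libraries labelled Tbk1+/- Ripk1D138N/D138N against Tbk1+/-, 0 to 18 for libraries labelled Tbk1+/- Tak1ΔM/+ Ripk1D138N/+ against Tbk1+/- Tak1ΔM/+, 16 to 56 for the interaction and 0 to 0 for the other 3 comparisons with WT. Calls over all genes moved too: for Tbk1+/- Tak1ΔM/+ against WT they were 392, 419 and 284 without Tbk1+/- Tak1ΔM/+ replicates 1, 2 and 3. For Tbk1+/- against WT they were 340 without Tbk1+/- replicate 2. For libraries labelled Tbk1+/- Tak1ΔM/+ Ripk1D138N/+ against Tbk1+/- Tak1ΔM/+ they were 97 and 95 without replicates 2 and 3 so labelled. With replicate number as a block the counts were 30 for the test of all genotypes, 11 for Tbk1+/- Tak1ΔM/+ against WT, 39 against Tbk1+/-, 45 against Tak1ΔM/+, 12 for libraries labelled Tbk1+/- Tak1ΔM/+ Ripk1D138N/+ against Tbk1+/- Tak1ΔM/+ and 33 for the interaction. After the test of all genotypes, calls over all genes with this block were 806, 1949, 328, 313 and 149 in that order. Libraries with the same number did not deviate together (median r -0.01 over 45 pairs, 0.00 over 90 pairs with different numbers), and 7 of 18 correlated best with a library of their own number, so the numbers were not taken to pair the samples. The spread between 3 libraries limits every comparison, and members with a mean under 100 CPM had wider errors.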
